A study of Homo sapiens with 4 samples.

Results

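The 10 genes described here encode surface proteins and enzymes that have been used to pick out tumour-initiating, or stem-like, breast cells. They are CD44, CD24, L1CAM, PROM1 (CD133), MUC1, NT5E (CD73), CD109, THY1 (CD90), ALDH1A1 and ALDH1A3. They were taken by name as a list of markers, found in the deposited table by their Ensembl identifiers, and made up 10 of the 50653 genes listed. All 10 were found. RNA was sequenced from 4 libraries of 2 human triple-negative breast cancer cell lines, BT-20 and MDA-MB-468, each stably carrying either a control shRNA or an shRNA against QPRT, the enzyme that turns quinolinate into a precursor of NAD+. The hairpin against QPRT was carried by the lentiviral vector pLKO.1-puro and the control hairpin by a lentiviral vector. Puromycin selection is stated for the knockdown cells, and whether the control cells were selected too is not stated. There was 1 library for each cell line and shRNA, so no group had a replicate. How many hairpins against QPRT were used and whether the selected cells were pools or clones is not given in the sources used here. Below, the pair of a line means its control shRNA library and its QPRT shRNA library, in that order. The lines were grown in different media, so that the effects of the line and of its medium cannot be told apart.

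CD44 is the main receptor for hyaluronan, a sugar polymer of the matrix around cells, and CD24 is a small, heavily glycosylated protein held in the membrane by a glycosylphosphatidylinositol (GPI) anchor. Breast cancer cells with much CD44 and little or no CD24 on their surface were the first described to start tumours from few cells. A different test, the Aldefluor reaction, marks cells with high aldehyde dehydrogenase activity, to which ALDH1A1 and ALDH1A3, which oxidise retinaldehyde to retinoic acid, are the main contributors in breast tissue. The other genes mark stem-like or invasive cells in several tumours. All values here are RNA levels of whole cultures, not surface protein or enzyme activity, and in bulk RNA fewer positive cells and less RNA per cell cannot be told apart.

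Levels are given as FPKM, the fragments of a gene scaled to the length of its transcripts and to the total of the library. The deposit gives no counts. Library totals of 10321996 to 10945948 fragments, and all fragment counts below, were inferred from the FPKM values and transcript lengths. QPRT itself stood at 248.6 and 40.5 FPKM in the BT-20 pair and at 117.3 and 18.3 in the MDA-MB-468 pair, lower in both libraries labelled QPRT shRNA (limma mean -2.60, SE 0.21, adjusted p = 1.42e-32). Markers of breast epithelium were abundant in every library, with KRT8 between 1548 and 4214 FPKM and EPCAM between 147.8 and 359.3. PGR was at 0 throughout, ESR1 between 1.04 and 5.76 and ERBB2 between 50.7 and 128.9. Of 6 markers of stromal fibroblasts, cells that express THY1 and NT5E strongly, 4 stayed below 1 FPKM in every library, and the summed level of the list was 15.5 to 33.3, most of it COL1A1. Of 5 leukocyte markers, PTPRC, CD3E and CD79A were below 1 throughout, while CD14 was at 1.29 and 2.44 FPKM in the BT-20 pair and at 15.4 and 26.1 in the MDA-MB-468 pair. The fifth, LYZ, which is also on the gut list, was at 6.66 and 0.598 and at 12.4 and 1.69, and limma called it lower with QPRT shRNA (adjusted p = 3.75e-12). Of 4 endothelial markers, CDH5 stood at 96.5 and 134.5 in the BT-20 pair and at 1.24 and 0.91 in the other. The rest were low. PECAM1 was at 2.78 and 3.27 in the BT-20 pair and at 1.06 and 1.28 in the other. VWF was at 1.94 and 1.94, then 0.284 and 0.181. KDR went the other way, at 0.0660 and 0 in the BT-20 pair and at 1.57 and 2.45 in the MDA-MB-468 pair. A list of 16 markers of gut epithelium and plasma cells was also detected, with none at 0 in any library. It was drawn up after these genes were seen to fall in earlier results of these data. The list was lower with QPRT shRNA in both lines, and its values stand beside ALDH1A1 below. Fold changes were related to GC content across 14232 genes, with a Spearman rho of -0.283 for BT-20 and of 0.288 for MDA-MB-468, given as a description because genes of 1 library pair share its preparation.

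CD24 was the most abundant of the 10 genes in every library and THY1 the least. In BT-20 with control shRNA the order ran from CD24 (1462 FPKM) through CD44 (338), L1CAM (276), MUC1 (131), ALDH1A3 (73.4), NT5E (6.44) and ALDH1A1 (3.39) to PROM1 (0.0547), CD109 (0.0536) and THY1 (0). In MDA-MB-468 with control shRNA it ran from CD24 (3901) through CD44 (1319), NT5E (100), MUC1 (80.4), ALDH1A3 (77.2), PROM1 (75.1), ALDH1A1 (22.7), L1CAM (9.42) and CD109 (8.65) to THY1 (0.146). CD24 and CD44 thus headed both orders, while L1CAM, PROM1 and NT5E changed places. With 1 library per group the spread between cultures is unknown, and neighbours as close as MUC1, ALDH1A3 and PROM1 in MDA-MB-468 cannot be ranked. Among all genes CD24 had ranks 44 and 50 in the BT-20 pair and 7 and 13 in the MDA-MB-468 pair, and CD44 had ranks 309 and 157, then 50 and 54. The length by which FPKM was divided is not stated. For most genes it matched the mean length of the transcripts annotated in GENCODE 29, of which CD44 has 39 and CD24 has 8. For CD44 whole fragments came at a length of 1022 and not at that mean of 1082. Levels compared between genes rest on these lengths.

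**Figure D1:**
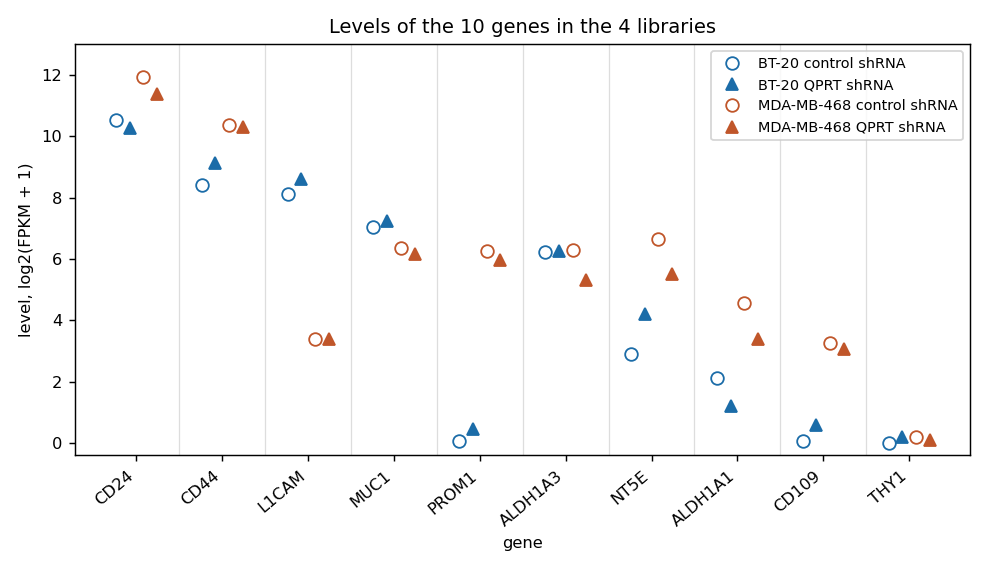
Level of each of the 10 genes in the 4 libraries, as log2(FPKM + 1), with 1 point per library and no error bars because no group has a replicate. CD24 lies highest in every library, L1CAM is high in the BT-20 libraries alone, PROM1 is high and CD109 is above 1 FPKM in the MDA-MB-468 libraries alone, and THY1 lies at the floor in all 4.

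CD24 (ENSG00000272398, chr6:106969831-106975627, minus strand, in GRCh38) was lower with QPRT shRNA in both lines. The BT-20 pair held 1462 FPKM (16984 fragments) and 1215 (14502). The MDA-MB-468 pair held 3901 (46709) and 2647 (29891). On the log2(FPKM + 1) scale the differences were -0.27 and -0.56, with exact Clopper-Pearson 95% intervals of the log2 fragment ratio of -0.30 to -0.23 and -0.58 to -0.54. These intervals, here and below, cover counting error alone, since PCR copies of a molecule cannot be told from other molecules and no culture was repeated. Neither difference reached the 2-fold used here as the mark of a change. Over both lines the limma estimate was -0.41 with a standard error (SE) of 0.19, an adjusted p of 0.845 and an unadjusted p of 0.0273, so CD24 was not called. CD24 has processed pseudogenes that could share its fragments, but the 4 pseudogene rows of the table were at 0 in all libraries, and how fragments matching several places were counted is not stated. CD24 is also among the genes the study chose to display from these same libraries.

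CD44 (ENSG00000026508, chr11:35138870-35232402, plus strand) was higher with QPRT shRNA in BT-20 and only slightly lower in MDA-MB-468. The difference in response between the 2 lines was not tested. The BT-20 pair held 338 FPKM (3673 fragments) and 551 (6149), a 1.63-fold ratio, with a log2 difference of 0.70 (interval of the fragment ratio 0.65 to 0.76). The MDA-MB-468 pair held 1319 (14753) and 1249 (13176), a log2 difference of -0.078 (-0.11 to -0.044). The BT-20 library with QPRT shRNA thus lay between the BT-20 control and both MDA-MB-468 libraries. Averaged over the lines by limma, the difference was 0.31 (SE 0.19, adjusted p = 0.9999). CD44-AS1, an antisense gene that overlaps CD44, was at 1.28, 1.72, 8.87 and 10.2 FPKM in the same order of libraries, and 0.84% of the exonic bases of CD44 are shared with exons of other genes.

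The ratio of CD24 to CD44, the pair that defines the CD44-high, CD24-low phenotype, was above 1 in every library. The BT-20 pair had FPKM ratios of 4.32 and 2.20, and the MDA-MB-468 pair 2.96 and 2.12. The log2 ratio was therefore lower with QPRT shRNA in both lines, at 2.11 (interval 2.06 to 2.16) and 1.14 (1.10 to 1.18) for the BT-20 pair and at 1.56 (1.54 to 1.59) and 1.08 (1.05 to 1.11) for the MDA-MB-468 pair, and none of the 4 counting intervals overlapped except those of the 2 QPRT shRNA libraries. In BT-20 the larger share of the shift came from CD44, and in MDA-MB-468 it came from CD24 with CD44 slightly lower. The ratio is given as a value per library and was not tested.

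**Figure D2:**
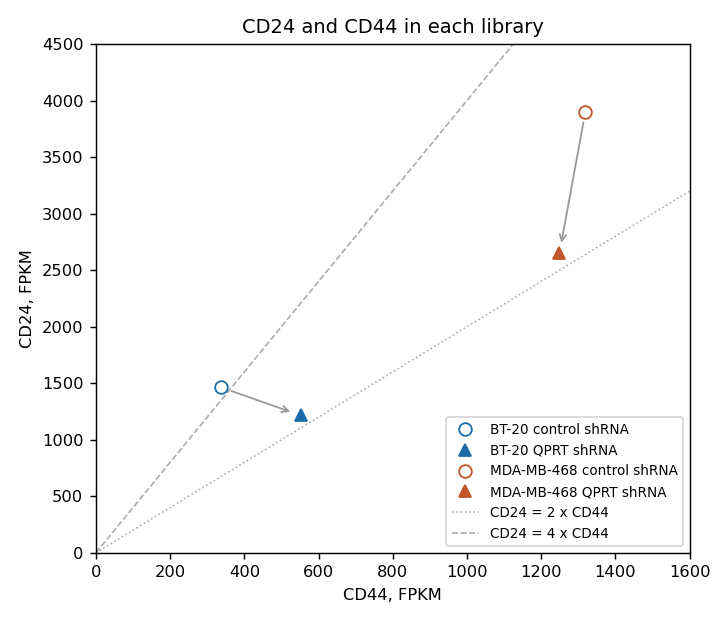
CD24 against CD44 in FPKM on linear axes, with 1 point per library, an arrow from control shRNA to QPRT shRNA in each cell line, and lines where CD24 is 2 and 4 times CD44. The BT-20 arrow runs mainly to the right, the MDA-MB-468 arrow mainly downwards, and both end near a ratio of 2, at 2.20 and 2.12.

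The genes with the profile most like CD24 over the 4 libraries, by Euclidean distance between centred log2(FPKM + 1) values, were YWHAQ (distance 0.094), HAUS1 (0.107) and CREB3L4 (0.118). For CD44 they were ZNF292 (0.099), NFE2L3 (0.114) and FAM111A-DT (0.116). With only 4 libraries such likeness is common: of the 10422 genes compared, 406 lay within 0.5 of CD24 and 307 within 0.5 of CD44.

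L1CAM, a neural adhesion molecule of the immunoglobulin superfamily that marks invasive edges in several carcinomas, was chiefly a BT-20 transcript. L1CAM (ENSG00000198910, chrX:153861514-153886174, minus strand) held 276 FPKM (4575 fragments) and 386 (6574) in the BT-20 pair but 9.42 (161) and 9.50 (153) in the MDA-MB-468 pair. The difference with QPRT shRNA was 0.48 in BT-20 (interval 0.43 to 0.54), against 0.010 in MDA-MB-468 (-0.32 to 0.34), and over both lines limma gave 0.25 (SE 0.21, adjusted p = 0.9999). L1CAM too is among the genes the study displayed from these libraries. Of its exonic bases, 11.0% lie in exons of other annotated genes, and the way the authors counted such fragments is not stated.

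MUC1, a membrane mucin of luminal surfaces, differed little between the libraries of each line. MUC1 (ENSG00000185499, chr1:155185824-155192916, minus strand) held 131 FPKM (1411 fragments) and 148 (1646) in the BT-20 pair, and 80.4 (895) and 71.1 (746) in the MDA-MB-468 pair. The log2 differences were 0.18 (interval 0.080 to 0.29) and -0.18 (-0.32 to -0.036), and the limma mean was 0.0033 (SE 0.20, adjusted p = 0.9999).

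PROM1, a pentaspan protein of membrane protrusions, was an MDA-MB-468 transcript. PROM1 (ENSG00000007062, chr4:15963076-16084378, minus strand) held 75.1 FPKM (1414 fragments) and 61.3 (1089) in the MDA-MB-468 pair, a log2 difference of -0.29 (interval -0.41 to -0.18). The BT-20 pair had 1 fragment (0.0547 FPKM) and 7 (0.373 FPKM), and the interval of that ratio ran from -0.19 to 8.26, so that a difference was not detectable at this depth. Other MDA-MB-468 transcripts picked for a very low level in the BT-20 control were also low in BT-20 with QPRT shRNA. These were the 12 genes other than the markers with a mean of at least 50 FPKM in MDA-MB-468 and at most 0.1% of that in BT-20 with control shRNA. Their median was 0.0393% of the MDA-MB-468 mean in the BT-20 control, which the rule kept low. In BT-20 with QPRT shRNA it was 0.560%, and the highest value was 1.16%. Genes picked for a low level in BT-20 with QPRT shRNA were not examined. PROM1 was at 0.547%, and the part of this low shared level in its BT-20 value was not tested.

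NT5E is a GPI-anchored 5'-nucleotidase that turns extracellular AMP into adenosine, and on the log2(FPKM + 1) scale it showed the widest split between the lines of the 9 members tested. On the log2 fragment ratio those of CD109 and PROM1, which rest on 4 and 1 control fragments in BT-20, were wider. NT5E (ENSG00000135318, chr6:85449584-85495791, plus strand) held 6.44 FPKM (135 fragments) and 17.6 (378) in the BT-20 pair, a 2.73-fold higher level with QPRT shRNA. The MDA-MB-468 pair held 100 (2160) and 44.2 (900), a 2.26-fold lower level. The 2 libraries with QPRT shRNA lay between the 2 controls, the log2(FPKM + 1) differences being 1.32 and -1.16, with intervals of the fragment ratio of 1.16 to 1.74 and -1.29 to -1.07. Only 12 of 14321 genes, or 0.0838%, were at least 2-fold apart in opposite directions in the 2 lines, and NT5E was 1 of them. The gap between its 2 differences was 2.48 against a median of 0.322 over all genes, and 17 genes, itself included, had a gap as large. The limma mean over both lines was 0.079 (SE 0.22, adjusted p = 0.9999). That SE does not reflect the gap of NT5E, because limma here gave each gene the spread shared by genes of its level, and the difference between the lines' responses is the only residual and could not be tested. None of its exonic bases is shared with another annotated gene.

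CD109, a GPI-anchored relative of alpha-2-macroglobulin that binds TGF-beta, was low but detected in MDA-MB-468 and close to absent in BT-20. CD109 (ENSG00000156535, chr6:73695785-73828316, plus strand) had 8.65 FPKM (665 fragments) and 7.31 (530) in the MDA-MB-468 pair, a log2 difference of -0.22 (interval of the fragment ratio -0.41 to -0.076). The BT-20 pair had 0.0536 FPKM (4 fragments) and 0.509 (39). The log2 fragment ratio in BT-20 was 3.25 (1.78 to 5.19), while the difference on the log2(FPKM + 1) scale was 0.52, since a pseudocount of 1 damps changes of genes this low. CD109 in BT-20 with QPRT shRNA stood at 6.38% of its MDA-MB-468 mean. It was at 0.672% in the BT-20 control and under 50 FPKM in MDA-MB-468, so it did not meet the rule of the 12 genes described with PROM1, and the part of the low shared level in its value was not tested. Over both lines limma gave 0.15 (SE 0.29, adjusted p = 0.9999).

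THY1, a GPI-anchored protein of fibroblasts, thymocytes and neurons, was not expressed at a level these libraries could measure. THY1 (ENSG00000154096, chr11:119417378-119424985, minus strand) had 0 and 2 fragments in the BT-20 pair and 2 and 1 in the MDA-MB-468 pair, all under the 3 fragments that a count of 0 allows. Its mean was under 1 FPKM, the filter used here, and it was the 1 member not tested. It lies wholly inside the gene USP2-AS1 on the opposite strand, with 10.7% of its exonic bases in exons of other genes.

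The promoter windows of 3 members are shown because their RNA was lower with QPRT shRNA in both lines (ALDH1A1), at least 2-fold apart in opposite directions (NT5E), or close to 2-fold lower in MDA-MB-468 alone (ALDH1A3). Each runs from 250 bases before to 50 bases after the RefSeq start, 5' to 3' on the strand of the gene, in GRCh38.p14. Capitals mark matches on either strand to the TATA box letters TATAAA, the CCAAT box letters CCAAT, the GC box letters GGGCGG and the AP-1 letters TGANTCA.
ALDH1A1: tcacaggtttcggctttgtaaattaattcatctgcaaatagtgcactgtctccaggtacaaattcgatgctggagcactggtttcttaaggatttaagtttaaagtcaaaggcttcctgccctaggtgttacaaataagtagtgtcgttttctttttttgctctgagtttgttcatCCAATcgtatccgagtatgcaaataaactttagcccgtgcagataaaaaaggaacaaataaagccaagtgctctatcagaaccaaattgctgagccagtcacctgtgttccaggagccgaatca
ALDH1A3: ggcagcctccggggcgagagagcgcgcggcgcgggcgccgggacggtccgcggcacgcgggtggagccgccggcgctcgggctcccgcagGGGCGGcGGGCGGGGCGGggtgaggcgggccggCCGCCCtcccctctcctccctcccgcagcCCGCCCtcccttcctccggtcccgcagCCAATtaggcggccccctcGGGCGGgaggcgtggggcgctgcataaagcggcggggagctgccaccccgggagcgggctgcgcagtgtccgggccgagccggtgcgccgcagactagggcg
NT5E: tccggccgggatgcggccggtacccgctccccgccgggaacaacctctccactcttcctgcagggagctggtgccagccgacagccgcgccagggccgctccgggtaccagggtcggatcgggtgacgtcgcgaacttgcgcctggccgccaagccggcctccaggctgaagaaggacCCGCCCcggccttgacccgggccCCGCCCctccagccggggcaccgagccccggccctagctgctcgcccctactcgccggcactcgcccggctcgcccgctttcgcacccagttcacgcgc
The windows are chr9:72953004-72953303 on the minus strand, chr15:100879581-100879880 on the plus strand and chr6:85449833-85450132 on the plus strand. The ALDH1A1 window holds 1 CCAAT and no GGGCGG, with 7 CpG dinucleotides and 40.3% GC. The ALDH1A3 window holds 1 CCAAT and 6 GGGCGG matches, some of which overlap, with 46 CpG and 81.7% GC. The NT5E window holds 2 GGGCGG matches, 37 CpG and 75% GC. Over 27305 RefSeq promoters of the same length the median was 14 CpG and 58.3% GC, and TATAAA was found in 11.95%, CCAAT in 35.7%, GGGCGG in 44.6% and TGANTCA in 7.76%. Promoters were matched for 9 of the 10 members, of which 1 held TATAAA (MUC1), 3 CCAAT, 7 GGGCGG and 0 TGANTCA. A match says only that these letters are in the window.

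ALDH1A1 was the only member called for QPRT shRNA over both lines. ALDH1A1 (ENSG00000165092, chr9:72900662-73080442, minus strand) held 3.39 FPKM (32 fragments) and 1.34 (13) in the BT-20 pair, a 2.53-fold lower level with QPRT shRNA, and 22.7 (221) and 9.58 (88) in the MDA-MB-468 pair, a 2.37-fold lower level. Both libraries with QPRT shRNA lay below the control of their line, with log2(FPKM + 1) differences of -0.91 and -1.16 and intervals of the fragment ratio of -2.39 to -0.37 and -1.62 to -0.88. The limma mean was -1.03 (SE 0.27, adjusted p = 0.0241). Across the alternatives the adjusted p ran from 0.00874 to 1, and the call was lost when the trend on GC content and length was removed (0.571), with limma-voom on fragments (0.142), with no filter on low values (0.988) and with no term for the cell line (1). The estimate was -1.02 with the trend removed, -1.25 with limma-voom and -1.03 in the other two. The gut epithelium and plasma cell markers moved with it. All 13 of these that were tested were lower in both lines, 8 of them at least 2-fold in BT-20 while in MDA-MB-468 all 13 were. Limma called 11 lower. Their summed level was 99.4 and 38.9 FPKM in the BT-20 pair and 229.6 and 41.6 in the MDA-MB-468 pair. The differences of the 13 ranged from -2.26 to -0.53 for BT-20 and from -2.60 to -1.06 for MDA-MB-468. Gut epithelium also expresses ALDH1A1. The part of these markers in the ALDH1A1 result was not tested.

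ALDH1A3 (ENSG00000184254, chr15:100877714-100916626, plus strand) was set apart in 1 library. It held 73.4 FPKM (1242 fragments) and 76.1 (1321) in the BT-20 pair and 77.2 (1345) and 39.2 (644) in the MDA-MB-468 pair, so that 3 libraries lay close together and MDA-MB-468 with QPRT shRNA stood below them. The log2 difference was 0.050 in BT-20 (interval -0.063 to 0.16), against -0.96 in MDA-MB-468 (-1.12 to -0.84), a 1.97-fold lower level, just short of 2-fold. With the trend on GC content and length removed it was -1.005 and passed. The limma mean was -0.46 (SE 0.21, adjusted p = 0.845, unadjusted p = 0.0272). Exons of antisense genes cover 27.5% of its exonic bases, and the strand used in counting is not stated. The most expressed of those overlapping genes, AC015712.2, was at 1.12, 2.03, 3.43 and 2.41 FPKM.

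Across the 19 aldehyde dehydrogenase genes, 18 were tested, and the members were not the most abundant. ALDH3B2, at 148.6 and 78.4 FPKM in the BT-20 pair and 543 and 443 in the MDA-MB-468 pair, headed the family in MDA-MB-468, and ALDH3A2 at 161 and 124 headed it in BT-20. On the log2(FPKM + 1) scale, 1.7% of all genes passed 2-fold in BT-20. In the family 1 gene was higher there with QPRT shRNA, ALDH1A2 (1.18 to 4.52 FPKM), and 1 was lower, ALDH3A1 (2.26 to 0.408). Low genes such as ALDH1A1, 2.53-fold lower in FPKM in BT-20, did not pass on that scale. In MDA-MB-468, where 1.89% passed, ALDH1A1 alone was at least 2-fold lower and none was higher. The median difference of the family was -0.037 for BT-20 and -0.094 for MDA-MB-468, against 0.048 and 0.011 over all genes. Between the lines, 9 of the 18 were called higher in MDA-MB-468 and 2 higher in BT-20, beside 4397 and 3496 of the 14321 genes tested (55.1% in all). Among those called, ALDH7A1, ALDH2 and ALDH1L1 passed the filter on low values through a single line and so had to differ. ALDH2 was at 0.469 and 0.457 FPKM in the BT-20 pair and at 32.8 and 25.3 in the MDA-MB-468 pair. ALDH7A1 was at 0.0696 and 0.542 FPKM in the BT-20 pair and 173.8 and 163.5 in the MDA-MB-468 pair, and ALDH1L1 at 30.1 and 21.9 in the former and 0 and 0.0466 in the latter.

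**Figure D3:**
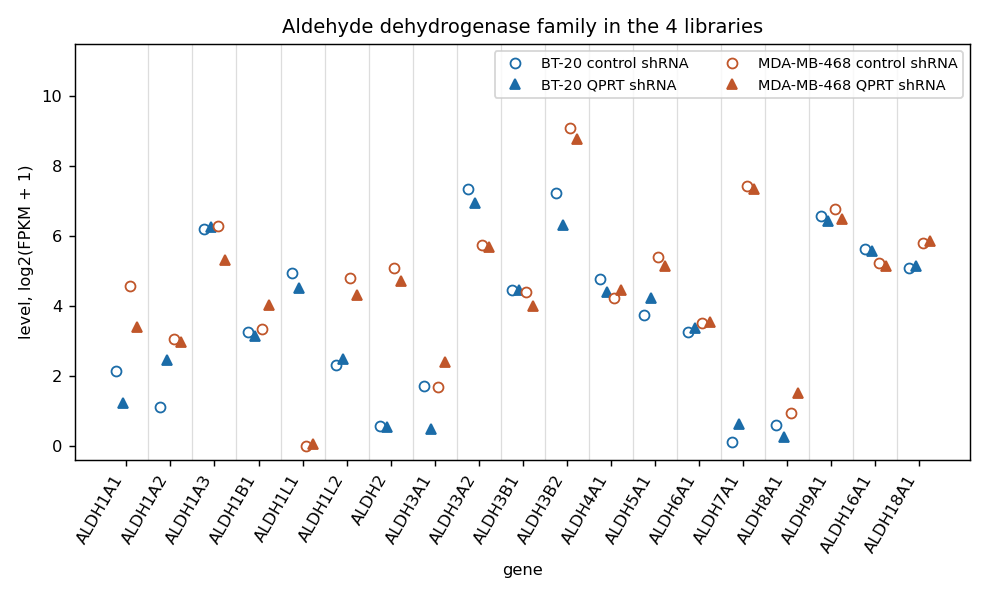
Level of the 19 aldehyde dehydrogenase genes in the 4 libraries, as log2(FPKM + 1), with 1 point per library. ALDH1A1 is lower with QPRT shRNA in both lines, ALDH1A3 in MDA-MB-468, and ALDH7A1 and ALDH2 are high in the MDA-MB-468 libraries alone.

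Taking the 9 tested members together, QPRT shRNA went with few changes of 2-fold or more on the log2(FPKM + 1) scale. In BT-20 1 of 9 was at least 2-fold higher on that scale (NT5E) and none was lower. Of the 14321 genes tested 1.7% passed in either direction, 151 higher and 93 lower. The scale damps low genes. In fragments per library total, ALDH1A1 was 2.53-fold lower in BT-20. CD109 and PROM1 were 9.5-fold and 6.8-fold higher there, on 4 and 1 control fragments. In MDA-MB-468 2 of 9 were at least 2-fold lower (NT5E and ALDH1A1) and none was higher, while 1.89% of all genes passed, 147 higher and 124 lower. ALDH1A3 was just short of the limit, at 1.97-fold lower. With 9 members, 1 or 2 are too few to read as an excess over these shares. Counted without a threshold, 7 of the 9 members were above 0 in BT-20 and 8 of 9 below 0 in MDA-MB-468, the exceptions being CD24 and ALDH1A1 in BT-20 and L1CAM in MDA-MB-468. The median was 0.38 for BT-20 and -0.29 for MDA-MB-468, against 0.048 and 0.011 over all genes. Of all genes 56.4% were above 0 and 43.0% below 0 in the BT-20 comparison, and 47.6% were below 0 in the other. Fold changes over all genes were related to GC content in opposite directions in the lines (rho -0.283 and 0.288). With the trend on GC content and length removed, L1CAM in MDA-MB-468 went from 0.010 to -0.11, and no other member changed sign. The part of that trend in these signs was not tested. PROM1 and CD109 passed the filter through their levels in MDA-MB-468 alone. Over both lines limma called 1 of 9 members, ALDH1A1, beside 90 of all genes (0.628%), 38 higher and 52 lower. An unadjusted p under 0.05 was found for 3 members and for 687 of the 14321 genes tested.

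**Figure D4:**
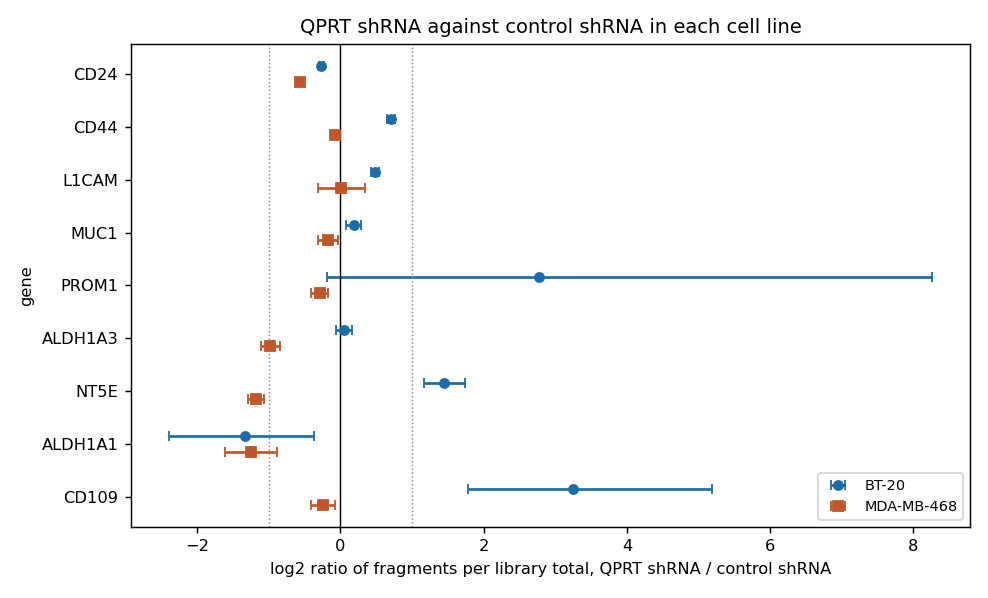
Log2 ratio of fragments per library total, QPRT shRNA over control shRNA, for 9 members in each cell line, with exact 95% counting intervals as bars, a solid line at 0 and dotted lines at 2-fold. THY1, with at most 2 fragments per library, is left out. NT5E lies beyond 2-fold on opposite sides in the lines, ALDH1A1 lies to the left in both, and the wide bars of PROM1 and CD109 in BT-20 rest on 1 and 4 control fragments.

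Most of these genes differed between the lines. In the same limma fit 8 of 9 tested members were called between the lines, where 55.1% of all genes were called. PROM1 and CD109 passed the filter on low values through MDA-MB-468 alone and so had to differ. Higher in MDA-MB-468 were PROM1 (log2 difference 5.84, SE 0.26, adjusted p = 4.77e-108), CD109 (2.83, SE 0.29, adjusted p = 8.95e-21), NT5E (2.52, SE 0.22, adjusted p = 6.45e-28), ALDH1A1 (2.31, SE 0.27, adjusted p = 1.06e-16), CD44 (1.57, SE 0.19, adjusted p = 6.01e-16) and CD24 (1.27, SE 0.19, adjusted p = 9.54e-11). Higher in BT-20 were L1CAM (-4.97, SE 0.21, adjusted p = 3.84e-121) and MUC1 (-0.87, SE 0.20, adjusted p = 4.40e-05). ALDH1A3 was not called (-0.43, SE 0.21, adjusted p = 0.0618). In fragments of the control libraries, PROM1 had a log2 ratio of 10.42 with an interval of 7.94 to 15.7, resting on 1 fragment in BT-20, and CD109 one of 7.33 (5.97 to 9.21). L1CAM was 29.3-fold higher in BT-20 among controls and 40.7-fold higher among QPRT shRNA libraries. NT5E was 15.5-fold higher in MDA-MB-468 among controls and 2.52-fold higher with QPRT shRNA, and CD44 3.90-fold and 2.27-fold higher.

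These p-values treat the 2 shRNA libraries of a line as its repeats. They use the spread shared by genes of a like level, not the spread of each gene between its own libraries. They do not measure the spread between repeated cultures. Leaving out 1 library in turn leaves a lone library in its line, and these fits also dropped the term for the shRNA. Their line difference therefore takes in part of the knockdown difference, and only effect sizes are given. Over the 4 fits CD24 ran from 0.99 to 1.55, NT5E from 1.86 to 3.18 and ALDH1A1 from 1.72 to 2.89. ALDH1A3 ran from -0.91, without MDA-MB-468 control shRNA, to 0.046, without MDA-MB-468 QPRT shRNA. PROM1, CD109, L1CAM, CD44 and MUC1 kept their direction in all 4 of these fits.

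**Figure D5:**
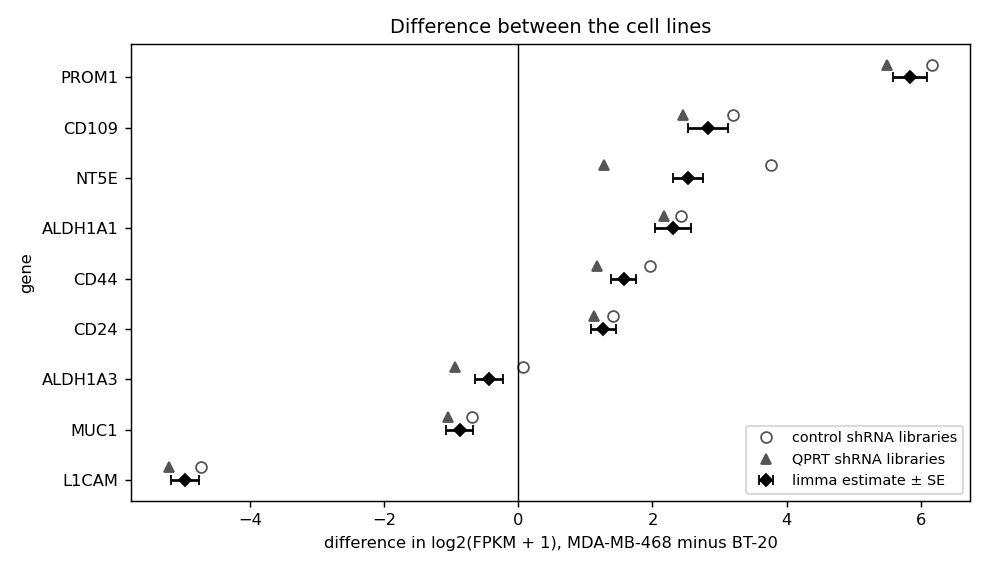
Difference in log2(FPKM + 1), MDA-MB-468 minus BT-20, for the 9 tested members, with the limma estimate and its SE as a diamond with a bar and the difference within each shRNA as a circle (control) or triangle (QPRT). PROM1 lies farthest to the right and L1CAM farthest to the left, and the circle and triangle of NT5E are the farthest apart.

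Genes that act with the members were examined from lists. Of 20 genes of hyaluronan and CD44 function, 15 were tested. In BT-20 2 were at least 2-fold higher with QPRT shRNA, the hyaluronan synthase HAS3 (1.95 to 5.64 FPKM) and SRGN, which encodes the CD44-binding proteoglycan serglycin (8.81 to 22.9). None was lower in BT-20, none passed in MDA-MB-468, and limma called none over both lines, with 3 at an unadjusted p under 0.05 (HAS3, HYAL2 and SRGN). ESRP1 and ESRP2, which control the splicing of CD44, were at 61.4, 61.6, 81.0 and 63.3 FPKM and at 142.3, 142.9, 32.9 and 31.4, and the table gives no isoform levels. ADAM10, a protease that sheds CD44 and L1CAM, was at 146.1 and 195.5 in the BT-20 pair and 91.2 and 67.5 in the MDA-MB-468 pair.

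Of 21 genes of extracellular nucleotides and adenosine, 12 were tested. Besides NT5E, the adenosine receptor gene ADORA1 was at least 2-fold higher in BT-20 (14.3 to 30.4 FPKM) and was 21.3 and 28.7 in MDA-MB-468. NT5E was the 1 gene of the list at least 2-fold lower in MDA-MB-468, and limma called none over both lines, with ADORA1 at an unadjusted p under 0.05. ENTPD1, which makes the AMP that NT5E uses, was at 2.30, 2.81, 5.62 and 6.41. Of 31 genes that build and attach GPI anchors, on which CD24, NT5E, CD109 and THY1 depend, 29 were tested and none passed 2-fold in either line or was called for QPRT shRNA by limma, where 0 had an unadjusted p under 0.05.

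Of 19 genes of TGF-beta receptors and of the relatives of CD109, 17 were tested, and only A2M passed 2-fold, at 104.5 and 34.3 FPKM in the MDA-MB-468 pair. A2M, which encodes alpha-2-macroglobulin, was at 0.724 and 0.705 in the BT-20 pair. Limma called none of the 17 over both lines, with A2M and TGFBR2 at an unadjusted p under 0.05. SMAD4 was at 9.67 and 11.2 in the BT-20 pair and at 0.279 and 0.0986 in the MDA-MB-468 pair. Of 17 genes of the L1 family and its partners, 10 were tested, and NCAM1 was at least 2-fold higher in MDA-MB-468 (1.91 to 7.56). Limma called none, with NCAM1 at an unadjusted p under 0.05. The closest relatives of L1CAM were low, with CHL1 and NFASC under 1 FPKM throughout and NRCAM at 1.99 and 2.31 in the BT-20 pair and 0 and 0.0365 in the other. PROM2, the paralogue of PROM1, was higher in BT-20 (207.3 and 283.9 FPKM) than in MDA-MB-468 (103.7 and 81.2), a limma difference of -1.39, opposite in sign to that of PROM1.

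Of 21 mucins and genes of MUC1 glycosylation, 11 were tested, none passed 2-fold in BT-20, and MUC6 and MUC13 were at least 2-fold lower in MDA-MB-468 (2.73 to 0.483 and 12.6 to 2.64 FPKM). Limma called MUC13 lower over both lines (adjusted p = 0.00711). MUC6 and MUC13 are also genes of gut epithelium. Of 22 other surface markers of stem-like breast cells, 17 were tested, with TSPAN8 and GGT5 at least 2-fold lower in BT-20, TSPAN8 lower in MDA-MB-468, and KIT (2.06 to 9.04) and MCAM (6.61 to 14.8) higher there. TSPAN8, which gut epithelium also expresses, was called lower over both lines (3.55 and 0.972, 12.05 and 2.17, adjusted p = 9.46e-06). CXCR4, NGFR and LGR5 stayed under the filter. A list of 16 genes held THY1, genes of the LY6 family and integrins. Of these 11 were tested, none passed 2-fold and limma called none, with LYPD3 and LYPD5 at an unadjusted p under 0.05. Of 18 stem cell transcription factors, 10 were tested and TP63 was at least 2-fold higher in MDA-MB-468 (0.998 to 3.54), with limma calling none and TP63 alone at an unadjusted p under 0.05, while SOX2 was under 1 FPKM and NANOG at 0 in all 4 libraries.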

How the data were processed

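RNA of 4 libraries, 1 per cell line and shRNA, was made into Illumina TruSeq libraries and sequenced on a NovaSeq system. The authors trimmed adaptors and poor reads and deposited FPKM values per Ensembl gene. The submitters' processing notes name CASAVA, FastQC, MultiQC, TopHat2 2.0.12 and HTSeq 0.6.1, and the genome build and annotation are not given in the sources used here. Symbols were matched for 49414 of 50653 genes and GENCODE 29 transcript lengths for 49839, and 27 repeated symbol rows were dropped. All gene coordinates are from GENCODE 29 (GRCh38). The total of each library was taken as the value that brought single-transcript genes closest to whole fragments, from FPKM times transcript length. With these totals, 87.2% to 87.6% of all values gave a whole number of fragments within 0.02. The totals were themselves fitted to give whole numbers. For CD44, L1CAM and CD109 the nearest length that gave whole fragments in all 4 libraries was used.

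Differences were taken on log2(FPKM + 1), which understates changes of low genes, in 14321 genes whose FPKM averaged 1 or more over the libraries. Within a line, 1 library per group allowed no test, and 2-fold marked a change. Over all libraries limma 3.58.1 (R 4.3.3) was fitted with terms for line and shRNA, eBayes with a trend, and Benjamini-Hochberg adjustment over all genes tested, called at an adjusted p under 0.05. The fit leaves 1 residual degree of freedom per gene, and its prior degrees of freedom were infinite, so every gene took the spread of genes of its level (median SD 0.242). The study's methods name DESeq2, which needs counts and was not used on FPKM. Alternatives were another pseudocount, scaling, filter or threshold, fits without the trend or a term, limma-voom on fragments, removal of the trends on GC content and length, and leaving out each library. The members and the gene lists were chosen with earlier results of these data known, so no list stands as independent evidence. Named genes were the members, QPRT, and from each list the genes that passed a call or the most abundant; others were chosen for their role after their values were seen. The inferred library totals were 10321996 to 10945948 fragments, and the intervals this depth gives cover counting error only.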

Additional observations from a re-analysis of the deposited data

Results flagged for a closer look

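For 4 members the difference between QPRT shRNA and control shRNA had opposite signs in the 2 lines, with counting intervals on opposite sides of 0. The values, on the log2(FPKM + 1) scale with BT-20 first, were 0.70 and -0.078 for CD44, 1.32 and -1.16 for NT5E, 0.52 and -0.22 for CD109, and 0.18 and -0.18 for MUC1. NT5E alone passed 2-fold in both. How many of all genes meet the rule of opposite intervals was not counted, so the 4 are no result about the members as a group. Counting intervals are narrow for abundant genes such as CD44. Fold changes over all genes were related to GC content in opposite directions in the lines (rho -0.283 and 0.288). With 1 library per line and shRNA, the difference between the lines was not tested. Groups of 1 library could not be examined for samples far from the others.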

How the results depend on the processing

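With a pseudocount of 0.1 the members at least 2-fold changed in BT-20 went from 1 to 4 (NT5E, CD109 and PROM1 higher, ALDH1A1 lower), and with a 1.5-fold threshold to 3 (CD44 and NT5E higher, ALDH1A1 lower). The 1 member called for QPRT shRNA over both lines became 0 with the trend on GC content and length removed, with limma-voom, with no filter and with no term for the cell line, where 2, 3, 1 and 0 members had an unadjusted p under 0.05. Limma then called 1, 64, 0 and 0 of all genes, with 677, 596, 807 and 17 at an unadjusted p under 0.05, against 90 and 687; with a minimum of 5 FPKM it called 45. The log2 ratio of CD24 to CD44 taken on fragments not divided by length was 2.21 and 1.24 for the BT-20 libraries and 1.66 and 1.18 for those of MDA-MB-468, a constant shift set by the 2 lengths. The mean with QPRT shRNA changed sign for NT5E (-0.19) and PROM1 (-0.16) under limma-voom and for MUC1 (-0.020) under upper quartile scaling, none of them called; the cause was not tested. The ALDH1A3 difference between the lines ranged from -0.91 to 0.046 when 1 library was left out, being 0.046 without MDA-MB-468 QPRT shRNA. The fits with 1 library left out also lacked the term for the shRNA, and they are described above by effect size alone. With no filter NT5E lost its call between the lines (adjusted p = 0.0521). Of 320 values for single members under the alternatives, 301 kept their direction and call or moved by less than the counting error. The term for the cell line in the fit pairs each QPRT shRNA library with the control of its line. No other pairing was possible, because the single libraries have no replicate numbers to pair by. Depth limits THY1, and PROM1 and CD109 in BT-20, which rest on 0 to 39 fragments.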
